A study of Mus musculus with 24 samples.

Results

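Gene expression in the terminal ileum of conventional mice was compared after 5 days of oral gavage with short-chain β2→1-fructan and after gavage with water. The members were the 18820 genes with a probe set assigned to a single gene symbol, taken from 35556 probe sets, in 4 mice on short-chain β2→1-fructan and 4 mice on water, of 24 arrays in the series. All mice were male C57BL/6OlaHsd of 8 weeks fed a purified low-fat diet. Short-chain β2→1-fructan was Frutalose OFP, a fructo-oligosaccharide made by partial hydrolysis of chicory inulin, given at 10 mg per day. For comparison, groups of 4 conventional mice on long-chain β2→1-fructan (Frutafit TEX!, the same daily amount) and germ-free mice on short-chain β2→1-fructan or on water were used. Each array carried the RNA of 1 mouse, so that mice were the replicates.

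Fructans are chains of fructose that mammalian digestive enzymes do not cleave, and they reach the bacteria of the lower gut largely intact. The ileum lies between the sugar- and fat-absorbing upper small intestine and the bacteria-rich large intestine. Its epithelium answers bacteria and the cytokine IL-22 with fucosylated surface sugars, antimicrobial proteins and hydrogen peroxide, while its enterocytes take up bile acids, vitamin B12 and what is left of the nutrients. The pieces of tissue held epithelium, immune cells, muscle and nerves together, and could carry attached fat, and in such bulk tissue fewer cells of a type and less RNA per cell cannot be told apart. Of the ileal markers, Fabp6, the ileal bile acid binding protein, had a mean log2 value of 12.50 in mice on short-chain β2→1-fructan and 12.52 in mice on water, and the bile acid transporter Slc10a2 had 10.92 and 10.89.

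Values are log2 RMA intensities, on which a difference of 1 is a doubling. The median array value lay between 4.94 and 4.97 on the 8 arrays, and r between arrays of 1 group was 0.985 to 0.990 over probe sets, which are no replicates of each other. A gene was called when its unadjusted limma p was under 0.01 and its fold change over 1.3. By this rule 77 genes were called (0.409% of 18820), of which 27 were higher (0.143%) and 50 lower (0.266%) in mice on short-chain β2→1-fructan. This imbalance depended on the scaling, since cyclic loess between arrays gave 41 higher and 39 lower, with a median difference over all genes of 0.0013 in place of -0.02. An unadjusted p under 0.01 was found for 214 genes, where evenly spread p-values would give 188.2, and one under 0.05 for 982. No gene reached an adjusted p of 0.05 (Benjamini-Hochberg over all genes), and the smallest was 0.0875 for Serpina1b. The differences were mostly small. Only 4 of the genes called higher and 8 of those called lower exceeded 1.5-fold, and 42.5% of all genes but 54.5% of the called genes stayed under a log2 mean of 5 in both groups, where these arrays read little signal. The values of the 4 and 4 mice did not overlap for 39 called genes, 12 higher and 27 lower, and for 768 of all genes (4.08%). Since a called gene had to differ, nothing is read from the first share.

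**Figure D1:**
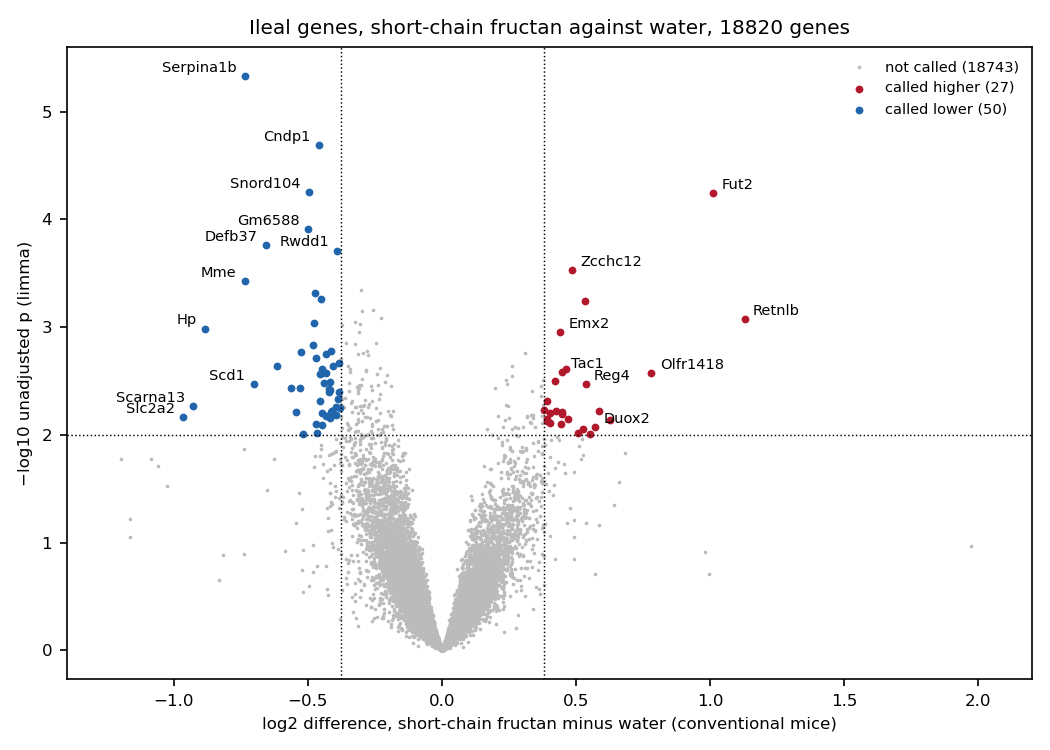
Each point is 1 of 18820 genes, with the log2 difference between mice on short-chain β2→1-fructan and mice on water on the x axis and −log10 of the unadjusted limma p on the y axis. Dotted lines mark the thresholds on p (0.01) and fold change (1.3), beyond which 27 genes (red) were higher and 50 (blue) lower, with Retnlb and Fut2 farthest to the right among the called genes and Serpina1b with the smallest p.

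The 2 genes with the highest called differences, Retnlb and Fut2, are epithelial genes that bacteria and IL-22 are known to induce. Retnlb encodes a goblet cell protein that binds bacterial membranes. Its log2 value was 5.79, 5.17, 5.45 and 6.60 in the 4 mice on short-chain β2→1-fructan, against 3.56, 4.97, 5.70 and 4.26 in the 4 mice on water. The groups overlapped through the third mouse on water, which was higher than 2 of the treated mice. The difference was 1.13 ± 0.30 (SE), or 2.19-fold (limma, adjusted p = 0.843). Fut2, the fucosyltransferase that puts terminal fucose on the epithelial surface, was measured at 7.49, 7.31, 6.42 and 7.45 in mice on short-chain β2→1-fructan, against 5.61, 6.45, 6.71 and 5.87 in mice on water. Here the third treated mouse lay within the range of the mice on water and the other 3 above all of them. The Fut2 difference of 1.01 ± 0.21 (SE) corresponded to 2.01-fold (limma, adjusted p = 0.268). An exact two-sided permutation test over the 70 assignments of the 8 mice gave p = 0.0857 for Fut2 and 0.114 for Retnlb, where 0.0286 is the smallest p possible. Both calls held without any single mouse, with differences from 0.77 to 1.49 for Retnlb and from 0.83 to 1.26 for Fut2 over all alternatives that tested them.

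Duox2, which makes hydrogen peroxide at the epithelial surface, followed the Fut2 pattern by mouse. It reached 10.20, 9.80, 8.70 and 10.06 in mice on short-chain β2→1-fructan, against 9.09, 9.20, 9.20 and 8.98 in mice on water. Thus 3 treated mice were above every mouse on water and the third was below all 4. The difference was 0.57 ± 0.20 (SE) on the log2 scale (limma, adjusted p = 0.843). It was 0.90 without the third treated mouse, where the adjusted p was 0.00428. The call was lost when any other mouse was left out: without treated mouse 1 (0.40), 2 (0.54) or 4 (0.45) and without water mouse 1 (0.56), 2 (0.60), 3 (0.60) or 4 (0.53). It was also lost in 5 alternatives that kept every mouse, with 1 prior for all genes, with the 12 conventional arrays or the 8 compared arrays alone, with array weights and without dim genes. Its maturation factor Duoxa2 was likewise lowest in the third treated mouse, at 9.96, 9.76, 8.06 and 10.01 in mice on short-chain β2→1-fructan, against 8.88, 9.04, 9.24 and 8.48 in mice on water, a difference of 0.54 that was not called.

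The Duox2 promoter is shown because Duox2 belongs to this set of genes and the RefSeq table (GRCm38.p6), which held 53 of the 77 called genes, had a sequence for it, covering 250 bases before to 50 after the transcription start at chr2:122298178-122298477 on the minus strand. Capitals mark GTTAAT, part of the site bound by the liver and gut factor HNF1 and searched on both strands, which 7.1% of 32851 promoters held.
Duox2 promoter: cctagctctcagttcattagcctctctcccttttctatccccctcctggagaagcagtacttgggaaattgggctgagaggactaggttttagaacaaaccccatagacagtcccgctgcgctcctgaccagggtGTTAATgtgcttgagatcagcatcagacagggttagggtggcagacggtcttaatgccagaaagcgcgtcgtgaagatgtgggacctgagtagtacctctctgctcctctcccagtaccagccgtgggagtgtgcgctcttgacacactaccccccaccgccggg
The STAT motif TTCNNNGAA, held by 8.3% of promoters, had no match in this window. Among the called genes with a sequence, 2 of 21 higher and 3 of 32 lower ones held the STAT motif, and 3 of 21 higher and 8 of 32 lower ones held GTTAAT. A gene counted here if any of its promoters matched, whereas 7.1% and 8.3% are shares of single promoters. The counts and these shares can therefore not be compared. These matches describe letters in the window and are not measured binding sites.

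Other genes of bacterial defence and mucus with a probe set of their own moved less than Retnlb and Fut2. A set shared by Saa2 and Saa1, given below, differed by 1.50 (limma, adjusted p = 0.129). Of 22 measured genes induced by IL-22 in epithelium, 3 were called higher (Fut2, Retnlb and Duox2), as were 0.143% of all genes, and none lower. The median difference was 0.09, against -0.02 over all genes. The study itself marked genes of this kind on these samples, so that the count is not independent evidence of a direction. Among members that were not called, Saa3, a serum amyloid A of the mucosa, differed by 0.48, and Reg3g and Reg3b, which encode lectins that kill bacteria, by 0.13 and 0.16. Reg3a differed by -0.48 and Socs3, the feedback inhibitor of STAT3, by -0.47. A second probe set of Socs3 differed by -0.15. All 14 measured genes of a list raised by segmented filamentous bacteria had positive differences, as did 43.5% of all genes, with a median of 0.21, and 3 of them were the called genes just named. Many members, such as Nos2, Reg3g and Reg3b, are also on the IL-22 list. The study compared its genes raised by short-chain β2→1-fructan with such genes, so this is not independent evidence either. It detected no segmented filamentous bacteria in any sample. Reg4, a secreted lectin of goblet and endocrine cells, was called higher at 11.37, 10.85, 10.91 and 10.85 in mice on short-chain β2→1-fructan, against 10.05, 10.54, 10.61 and 10.63 in mice on water. These values did not overlap, and the Reg4 difference of 0.54 ± 0.17 (SE) had an adjusted p of 0.843 (limma). Its call was lost without the first treated mouse (0.41) or the first mouse on water (0.40).

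The 25 measured genes of fucosylation and mucin glycosylation had a median difference of 0.08 and positive differences in 20, against 43.5% of all genes. They had 2 called members, both higher, where 0.143% of all genes were called higher. B3gnt7, which extends the sugar chains that carry fucose and sulfate, was the second at 6.76, 6.51, 5.70 and 5.93 in mice on short-chain β2→1-fructan, against 5.49, 5.87, 5.96 and 5.69 in mice on water. Only treated mice 1 and 2 stood above the mice on water, and the call was lost without treated mouse 1 (0.29) or 2 (0.38) or water mouse 1 (0.38) or 4 (0.45). It was also lost in fits of the 12 conventional or the 8 compared arrays, with array weights and with the replicate block. C1galt1, the enzyme of core O-glycans, differed by 0.18, and Gmds, which makes the fucose donor, by 0.12. The mucin gene Muc2 lay between 12.69 and 12.74 in mice on short-chain β2→1-fructan and between 12.66 and 12.78 in mice on water. Of 11 goblet cell effector genes Retnlb was the sole call, and none of 10 goblet cell markers was called, with a median of 0.01. The goblet cell factor Spdef differed by 0.22 and the transmembrane mucin Muc13 by 0.11.

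**Figure D2:**
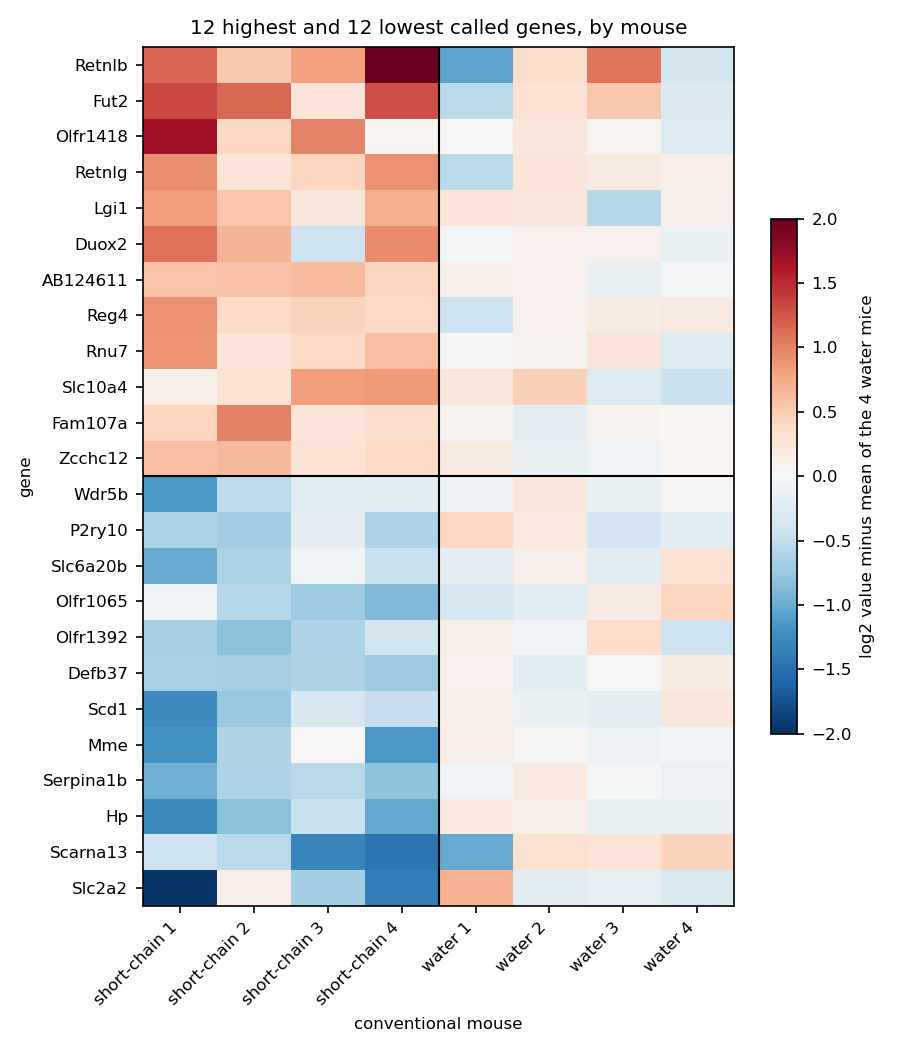
Rows are the 12 highest and 12 lowest called genes and columns the 8 conventional mice, with colour giving the log2 value minus the mean of the 4 mice on water. The third mouse on short-chain β2→1-fructan is paler than the other 3 for Fut2, Duox2 and Mme, while Serpina1b, Hp and Defb37 are lower in all 4 treated mice than in any mouse on water.

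The lowest p belonged to Serpina1b, an α1-antitrypsin gene whose product inhibits neutrophil elastase. Its promoter at chr12:103738140-103738439 (GRCm38.p6, RefSeq, minus strand) is shown with the same motif in capitals.
Serpina1b promoter: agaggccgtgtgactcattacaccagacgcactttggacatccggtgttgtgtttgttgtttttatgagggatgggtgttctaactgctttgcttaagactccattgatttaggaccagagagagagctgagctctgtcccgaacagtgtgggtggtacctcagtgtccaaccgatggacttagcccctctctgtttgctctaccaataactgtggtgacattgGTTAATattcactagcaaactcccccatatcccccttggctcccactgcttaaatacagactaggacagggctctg
Serpina1b was measured at 8.02, 8.37, 8.42 and 8.18 in mice on short-chain β2→1-fructan, against 8.93, 9.17, 8.96 and 8.87 in mice on water. The mean of 8.25 ± 0.19 in treated mice stood against 8.99 ± 0.13 in mice on water (SD, n = 4 each), and no value overlapped. This was a difference of -0.74 ± 0.13 (SE), 1.67-fold lower (limma, adjusted p = 0.0875, exact permutation p = 0.0286). The adjusted p was 0.0168 in a fit of the 8 arrays alone, to 0.0498 with array weights and to 0.0185 without the third treated mouse, and the call held in every alternative. The Serpina1 genes are near-identical copies, and RNA of 1 copy can hybridise with the probes of another. Of the others with a set of their own, Serpina1c differed by 0.21 and Serpina1d by 0.01, neither of them called. Both sets were dim, with means of 3.18 on short-chain β2→1-fructan and 2.97 on water for Serpina1c. For Serpina1d the means were 2.86 and 2.85, so that these sets cannot show whether the other copies changed.

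Haptoglobin (Hp), a haemoglobin-binding acute-phase protein, was also lower. It gave 3.53, 3.98, 4.36 and 3.78 in mice on short-chain β2→1-fructan, against 4.99, 4.92, 4.64 and 4.64 in mice on water, with no overlap. The Hp difference was -0.89 ± 0.24 (SE), 1.85-fold lower (limma, adjusted p = 0.843), and its call held in every alternative that tested it. The filter on dim genes left Hp out. Serpina1b and Hp were the 2 called genes of 19 measured acute-phase and plasma protein genes, where 0.266% of all genes were called lower. The 19 genes had a median difference of -0.0013 and 9 positive members, against 43.5% positive of all genes. Defb37, a β-defensin, was nearly constant at 6.06, 6.04, 6.11 and 5.98 in mice on short-chain β2→1-fructan, against 6.79, 6.48, 6.70 and 6.85 in mice on water. Its difference of -0.66 ± 0.15 (SE) was called (limma, adjusted p = 0.525) in every alternative. Of 17 antimicrobial genes Reg4 was called higher and Defb37 lower, where 0.409% of all genes were called, and the median was 0.03.

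**Figure D3:**
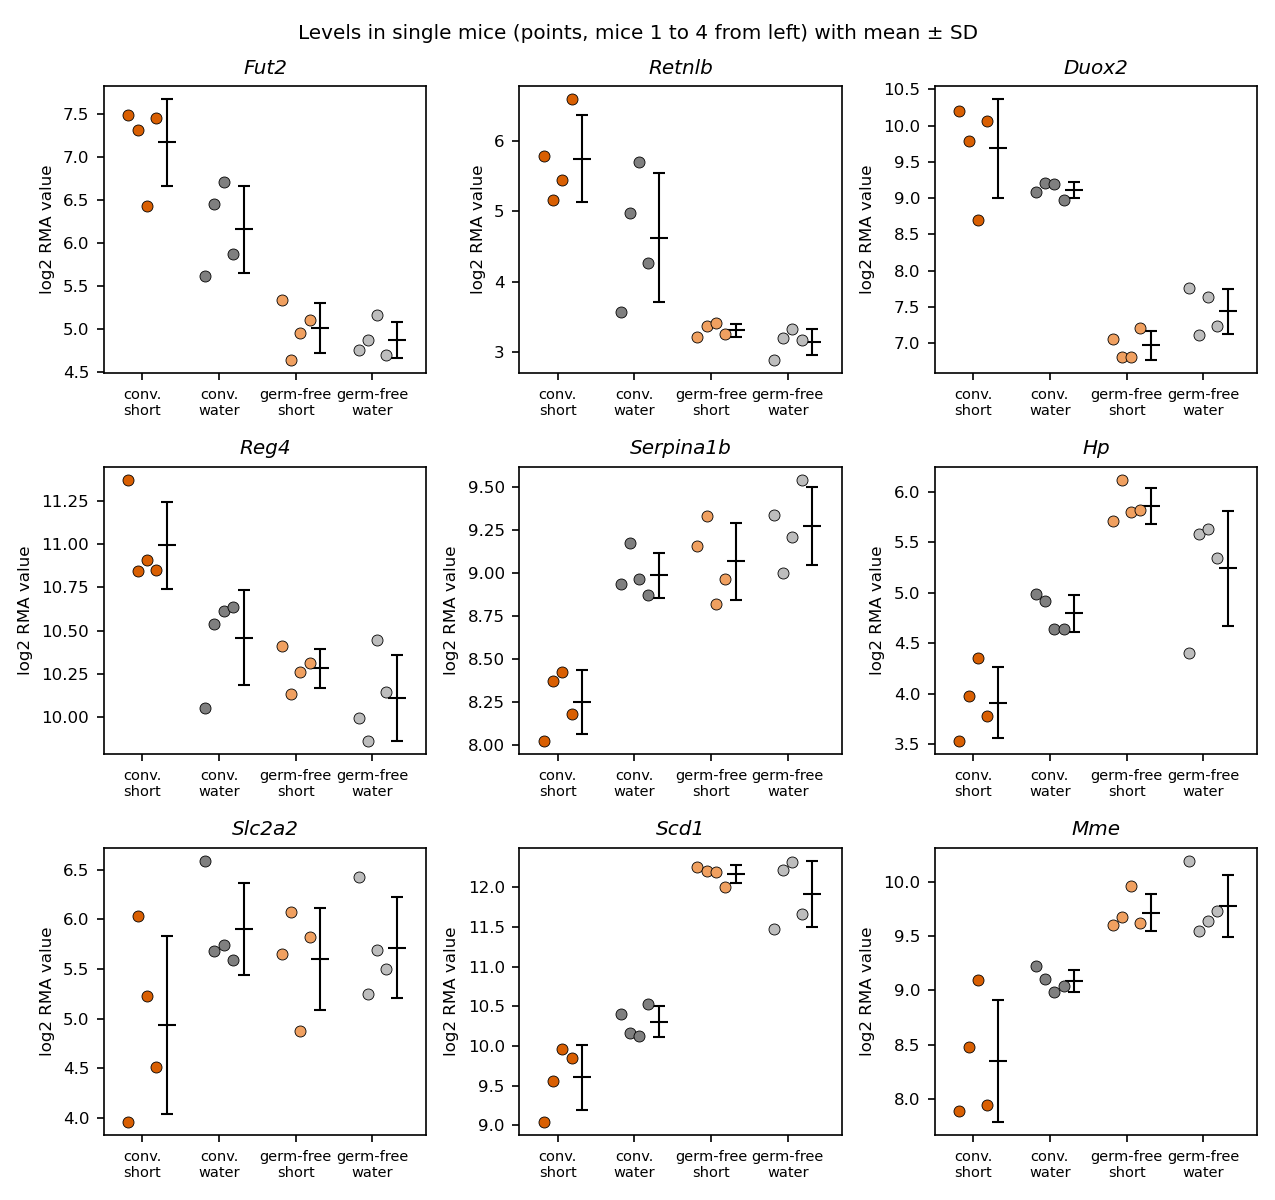
Points are the log2 RMA values of single mice for 9 called genes, with mean ± SD of the 4 mice beside them, for short-chain β2→1-fructan left of water in conventional and then in germ-free mice. Serpina1b, Hp and Scd1 of conventional treated mice lie below all conventional mice on water, while Fut2, Retnlb and Duox2 are lower in every germ-free mouse than the mean of the conventional mice on water.

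Slc2a2 (GLUT2), through which glucose and fructose leave the enterocyte, had the lowest called difference. It was measured at 3.96, 6.03, 5.22 and 4.52 in mice on short-chain β2→1-fructan, against 6.59, 5.68, 5.74 and 5.59 in mice on water. Treated mice differed widely, and the second exceeded 3 of the 4 mice on water. The difference was -0.97 ± 0.33 (SE), 1.95-fold lower (limma, adjusted p = 0.843, exact permutation p = 0.114), and was no longer called without treated mouse 1 (-0.64) or 4 (-0.83) or without water mouse 1 (-0.74). The call was also lost with 1 prior for all genes and in fits of the 12 conventional or the 8 compared arrays. All 14 measured genes of sugar transport and fructose metabolism had negative differences, as did 56.5% of all genes, with a median of -0.20, but Slc2a2 alone was called. Of all genes 0.266% were called lower. Among the rest, Mlxipl (ChREBP), the sugar-sensing transcription factor, differed by -0.26 without overlap, Fbp1 by -0.33 and Khk, the first enzyme of fructose breakdown, by -0.22. The fructose transporter Slc2a5 differed by -0.03 and the sodium-glucose transporter Slc5a1 by -0.05.

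Scd1, which desaturates fatty acids, had values of 9.04, 9.55, 9.96 and 9.85 in mice on short-chain β2→1-fructan, against 10.40, 10.16, 10.12 and 10.53 in mice on water. No value overlapped, and the difference of -0.70 ± 0.22 (SE) was called (limma, adjusted p = 0.843) but not without the first treated mouse (-0.52) or the fourth mouse on water (-0.63). The other 12 genes of fatty acid synthesis were not called, and that list had a median of 0.00. None of 20 genes of lipid absorption and chylomicron assembly was called, while 17 were negative (85.0%, against 56.5% of all genes) with a median of -0.13. Abcg5 and Abcg8, the paired sterol exporters, differed by -0.31 and -0.27, the transcription factor Creb3l3 by -0.40 and apolipoprotein Apoa1 by -0.12. Of 16 genes typical of the upper small intestine, Slc2a2 and Scd1 were called lower, as were 0.266% of all genes. Of the 16, 14 were negative, as were 56.5% of all genes, and the median was -0.17. The summed linear intensity of these 16 genes ranged from 5549 to 5922 in mice on short-chain β2→1-fructan and from 6483 to 7660 in mice on water. Bright genes weigh most in this sum, among them the called Scd1, whose values alone did not overlap. The gap between the sums is therefore not separate from the Scd1 call and does not show a change across the list. No gene of 10 general and 10 ileal enterocyte markers was called, with medians of -0.03 and -0.02.

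None of 9 measured adipocyte genes was called in the fit of all 24 arrays. All 9 had negative differences, as did 56.5% of all genes, with a median of -0.52. Adiponectin (Adipoq) was measured at 4.30, 4.97, 5.60 and 5.35 in mice on short-chain β2→1-fructan, against 6.01, 6.03, 6.16 and 6.12 in mice on water. Resistin (Retn) and Car3 likewise did not overlap, with differences of -1.09 and -1.06. Cidec differed by -0.42, Fabp4 by -0.52 and Lpl by -0.59. In a fit of the 8 compared arrays alone, Adipoq, Retn, Car3, Cidec, Fabp4 and Lpl were called lower. Adipoq, Retn, Car3 and Cidec were also called lower in a fit of the 12 conventional arrays. The 9 genes summed to a linear intensity of 807 to 1323 in mice on short-chain β2→1-fructan and of 1616 to 1784 in mice on water. Scd1 and Hp are also strongly expressed in fat, and the part of fat in their differences was not tested.

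Mme (neprilysin), a peptidase of the brush border that cleaves substance P and other peptides, was lower in 3 of the 4 treated mice. It gave 7.89, 8.48, 9.10 and 7.94 in mice on short-chain β2→1-fructan, against 9.22, 9.10, 8.99 and 9.04 in mice on water. Again the third treated mouse lay among the mice on water. The difference of -0.74 ± 0.18 (SE) was called in every alternative (limma, adjusted p = 0.779), and its adjusted p without that mouse was 0.00428. Mme was the sole call of 15 brush border peptidases and disaccharidases, whose median was -0.07, where 0.266% of all genes were called lower. Sucrase-isomaltase (Sis) differed by -0.19 without overlap but by less than 1.3-fold. Tac1, the precursor of substance P, was called higher at 6.07, 6.17, 6.09 and 5.69 in mice on short-chain β2→1-fructan, against 5.37, 5.52, 5.57 and 5.78 in mice on water. Its difference of 0.45 was lost from the calls without the second treated mouse (0.39) or the first mouse on water (0.38). A list of 14 genes of enteric neuropeptides and their receptors also held Mme, as a peptidase that cleaves such peptides. Tac1 and Mme, both also on other lists, were its 2 called genes, where 0.409% of all genes were called. Of the 14, 11 were positive, as were 43.5% of all genes, with a median of 0.07.

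Further enzymes and transporters were called lower. Cndp1, a dipeptidase, was 7.06, 6.99, 7.28 and 7.29 in mice on short-chain β2→1-fructan, against 7.70, 7.64, 7.57 and 7.55 in mice on water. Its difference of -0.46 ± 0.09 (SE) had an adjusted p of 0.194 (limma) and was called in every alternative. Of 22 genes of cytochrome P450 and xenobiotic metabolism, 17 were negative, as were 56.5% of all genes, and the median was -0.19. Of the 22, 2 were called lower, as were 0.266% of all genes. These were Cyp2d26, at 8.88, 9.54, 9.84 and 9.04 in mice on short-chain β2→1-fructan and between 9.67 and 9.86 in mice on water, and the carboxylesterase Ces3a, a dim gene at 2.38 to 2.52 in mice on short-chain β2→1-fructan and 2.55 to 3.33 in mice on water. The call of Cyp2d26 was lost without treated mouse 1 (-0.30) or 4 (-0.35) or water mouse 1 (-0.45), 2 (-0.44) or 4 (-0.42), as well as with 1 prior for all genes and in fits of the 12 conventional or the 8 compared arrays, and that of Ces3a without water mouse 3 (-0.35). Cyp3a11 and Cyp3a25 differed by -0.65 and -0.54 without being called. Slc6a20b, an imino acid transporter of the brush border, was 3.997, 4.38, 4.93 and 4.56 in mice on short-chain β2→1-fructan, against 4.83, 5.12, 4.78 and 5.32 in mice on water, a difference of -0.54 with overlap. Overlap was also found for the mitochondrial carrier Slc25a45 (-0.52), the acetyltransferase Nat8 (-0.43) and the annexin of the intestinal brush border Anxa13 (-0.42). Each of these 4 calls was lost in several fits without 1 mouse. Hoga1 (hydroxyproline breakdown), Dao (D-amino acid oxidase), Qpct (glutaminyl cyclase) and the monocarboxylate transporter Slc16a11 differed by -0.47, -0.42, -0.42 and -0.39. Among ileal genes that were not called, Amn and Cubn, the receptor pair for vitamin B12, differed by -0.27 and -0.17.

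**Figure D4:**
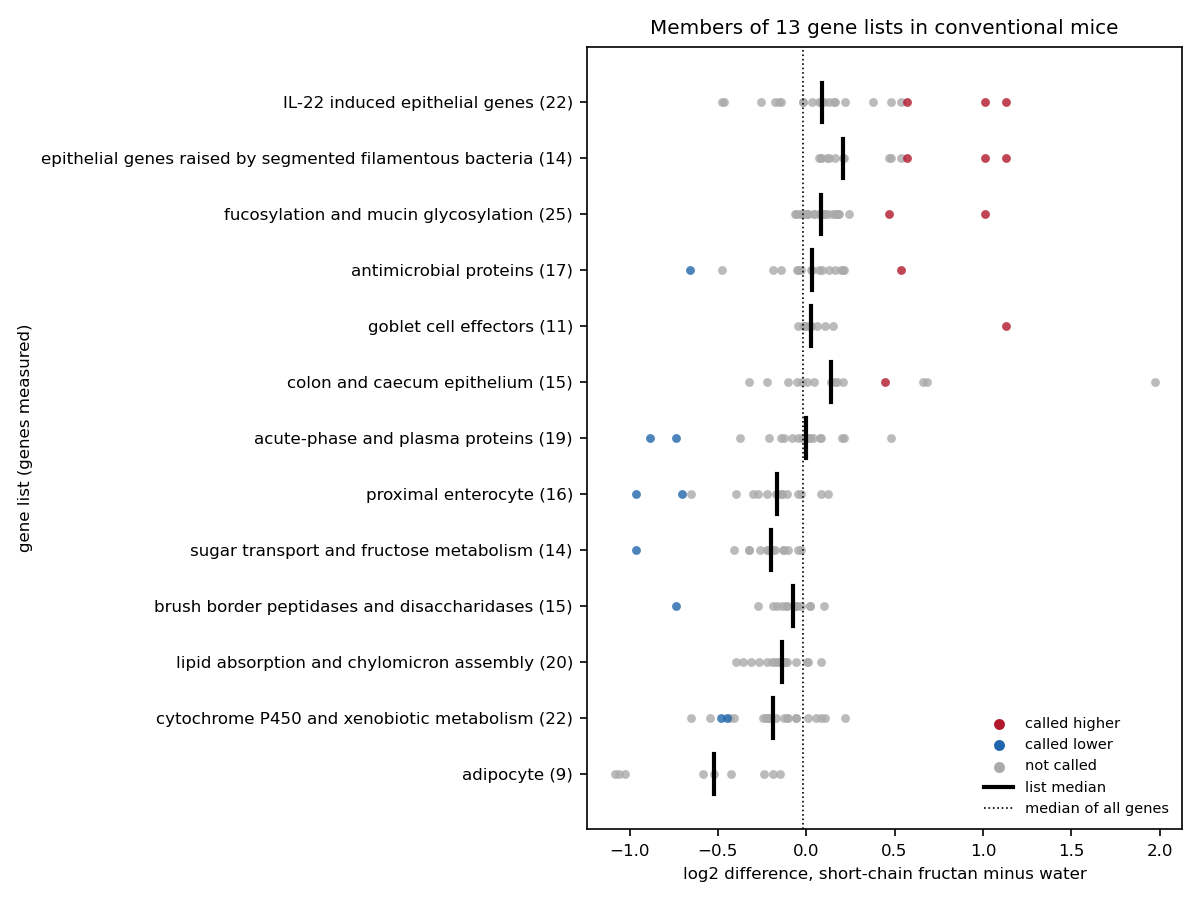
Points are the log2 differences (short-chain β2→1-fructan minus water) of the members of 13 gene lists, with called genes in colour, a bar at each list's median and a dotted line at the median of all genes (-0.02). Medians run from -0.52 for adipocyte genes to 0.21 for genes raised by segmented filamentous bacteria, and no list has more than 3 called members.

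The remaining genes called higher were of mixed function, many of them dim. Olfr1418 was called at 4.03, 2.77, 3.34 and 2.39 in mice on short-chain β2→1-fructan, against 2.36, 2.57, 2.40 and 2.08 in mice on water, a spread in which the first treated mouse stood apart, and the call was lost without treated mouse 1 (0.48) or 3 (0.71) or water mouse 4 (0.69). Retnlg, a resistin-like gene on chromosome 16 like Retnlb, was 4.38, 3.69, 3.88 and 4.37 in mice on short-chain β2→1-fructan, against 2.91, 3.69, 3.63 and 3.58 in mice on water, groups that met at 3.69 without overlapping, and differed by 0.63. Without the first mouse on water this was 0.45, without treated mouse 1 or 4 it was 0.53, and in each case it was not called. Among genes known from nerve cells, Lgi1 was 3.34, 3.05, 2.72 and 3.23 in mice on short-chain β2→1-fructan, against 2.75, 2.73, 1.93 and 2.61 in mice on water (0.58), with overlap. Slc10a4 was 3.46, 3.63, 4.18 and 4.19 in mice on short-chain β2→1-fructan, against 3.56, 3.81, 3.06 and 2.91 in mice on water (0.53), also with overlap, and the potassium channel Kcna1 differed by 0.39. Of 10 markers of enteric neurons and glia Tac1 was the one called, with 8 positive, against 43.5% of all genes, and a median of 0.18. Of all genes 0.143% were called higher. Zcchc12 (4.35, 4.40, 4.04 and 4.15 in mice on short-chain β2→1-fructan, against 3.93, 3.61, 3.67 and 3.79 in mice on water) and the histone-mRNA processing RNA Rnu7 were the further higher genes called in every alternative that tested them. The filter on dim genes left both out. Rnu7 was 2.82, 2.17, 2.31 and 2.53 in mice on short-chain β2→1-fructan, against 1.88, 1.99, 2.18 and 1.65 in mice on water, and differed by 0.53 with overlap at the low end. AB124611, at 4.47, 4.48, 4.52 and 4.33 in mice on short-chain β2→1-fructan and 3.997, 3.98, 3.75 and 3.87 in mice on water, lost its call without any 1 of the 8 mice, with differences from 0.50 to 0.59, and with 1 prior for all genes. Fam107a was 4.53, 5.11, 4.36 and 4.44 in mice on short-chain β2→1-fructan, against 4.17, 3.92, 4.18 and 4.14 in mice on water, with no overlap. It was higher by 0.51, Fndc1 by 0.46, Ctrl, a chymotrypsin-like protease, by 0.44, the homeobox gene Emx2 by 0.44, Marcksl1 by 0.43, the retinoid receptor Rxrg by 0.42, Ccdc71l and Psapl1 by 0.40 and the actin-capping Capg by 0.38. A second probe set of Marcksl1 differed by 0.13, and the Marcksl1 call was lost with averaged probe sets. Plac8l1 (0.45), 4933428M09Rik (0.39) and the small nucleolar RNA Snord96a (0.39) complete the genes called higher with Car4, given below.

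Car4, a membrane-bound carbonic anhydrase abundant in the large intestine, was 10.30, 9.87, 9.23 and 10.24 in mice on short-chain β2→1-fructan, against 9.44, 9.63, 9.62 and 9.16 in mice on water. Its call (0.45) was lost without treated mouse 1 (0.32), 2 (0.46) or 4 (0.34) or water mouse 1 (0.44) or 4 (0.35), and with 1 prior for all genes or the 12 conventional or 8 compared arrays alone, and the difference without treated mouse 3 was 0.68 with an adjusted p of 0.0155. Car1, the cytosolic carbonic anhydrase of the same epithelium, is named here after its values were seen, because it had the largest difference of all genes, 1.97 ± 1.19 (SE), and was not called. It was 11.48, 11.90, 12.56 and 9.43 in mice on short-chain β2→1-fructan, against 4.70, 11.74, 11.88 and 9.16 in mice on water, so that the first mouse on water was far below the other 7. A list of 15 measured genes of colon and caecum epithelium was written after these values had been seen and is given without a test. It had a median of 0.14 with Car4 as its one call, where 0.143% of all genes were called higher. The list had 10 positive and 5 negative members, against 43.5% positive of all genes. After Car1, the highest members were Gsdmc2 (0.68) and B3galt5 (0.66), and the lowest were Aqp8 (-0.32) and Cyp2c55 (-0.22). Its summed linear intensity ranged from 4536 to 10025 in mice on short-chain β2→1-fructan and from 2552 to 7116 in mice on water. Retnlb and Reg4 are also more abundant in the large intestine, and the part of the sampled position in their differences was not tested.

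The remaining genes called lower included small RNAs, olfactory receptors and zinc finger genes. Scarna13, a small Cajal body RNA, was 6.76, 6.63, 5.84 and 5.72 in mice on short-chain β2→1-fructan, against 6.16, 7.47, 7.42 and 7.61 in mice on water, and its call (-0.93) was lost without treated mouse 3 (-0.79) or 4 (-0.76) or water mouse 2 (-0.83), 3 (-0.84) or 4 (-0.78). The nucleolar RNA Snord104 was lower in all 4 treated mice at 8.84, 9.06, 8.82 and 8.62, against 9.48, 9.30, 9.29 and 9.26 in mice on water, a difference of -0.50 ± 0.10 (SE) that was called in every alternative (limma, adjusted p = 0.268). Snord35b differed by -0.41. Olfr1392 was 3.37, 3.22, 3.42 and 3.67 in mice on short-chain β2→1-fructan, against 4.14, 3.97, 4.40 and 3.62 in mice on water, with overlap in 1 mouse on water. Olfr1065 was 2.60, 2.10, 1.94 and 1.79 in mice on short-chain β2→1-fructan, against 2.31, 2.44, 2.83 and 3.09 in mice on water, with more overlap. Both, with Olfr1324, Olfr669 and Olfr298, differed by -0.61 to -0.41, and with Olfr1418 they made 6 calls among 990 olfactory receptor genes (0.606%, against 0.409% of all genes). Olfr1324, Gm6588 (-0.50) and the transporter-like Slc35f3 (-0.45) were called in every alternative that tested them, which the filter on dim genes did not. P2ry10 (-0.53), a receptor of lymphocytes, and Wdr5b (-0.53) were among the 12 lowest, with P2ry10 overlapping at 2.76, 2.70, 3.22 and 2.78 in mice on short-chain β2→1-fructan and 3.80, 3.60, 3.02 and 3.17 in mice on water. Wdr5b did not overlap, at 4.41, 5.05, 5.32 and 5.34 in mice on short-chain β2→1-fructan, against 5.45, 5.77, 5.41 and 5.59 in mice on water, but without treated mouse 1 it differed by -0.32 and was not called.

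Sele (E-selectin, -0.48), Wfdc2 (-0.47) and the neuromedin U receptor Nmur2 (-0.44) did not overlap between the groups. The further genes called lower were Zfy1, 3110053B16Rik, Ttc39c, Cib3, Ppp4r4, A630010A05Rik, Ldlrad1, 2810039B14Rik, Ptchd4, Ajuba, Zfp600, Bend6, Gh, Dleu2, Rwdd1, Cep44, Zfp788 and Mir152, with differences from -0.47 for Zfy1 to -0.38 for Mir152. Zfy1 rested on the third mouse on water, at 3.49 where the other 7 mice lay between 2.14 and 2.44, and differed by -0.20 without it. Its call was also lost without any 1 treated mouse and in 4 alternatives that kept every mouse. A second probe set of Ptchd4 differed by 0.27, in the opposite direction, and one of 3110053B16Rik by -0.18. The calls of both genes were lost with averaged probe sets.

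Mir152, the one microRNA gene called, lies at chr11:96850393-96850465 and was 3.18, 3.03, 3.44 and 3.12 in mice on short-chain β2→1-fructan, against 3.52, 3.78, 3.40 and 3.61 in mice on water. Its mature sequences (RefSeq, GRCm38.p6) are printed because the seed, bases 2 to 8 in capitals, is what a microRNA pairs with its targets.
mmu-miR-152-5p: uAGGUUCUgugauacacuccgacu
mmu-miR-152-3p: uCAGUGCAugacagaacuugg
The probe set reads the gene and does not tell the mature arms from the hairpin. Its difference of -0.38 corresponded to 1.303-fold. Just inside the fold threshold were also Capg (1.301-fold) and Zfp788 (1.305-fold), and just outside it Spo11 (1.2995-fold), Nkx1-2 (1.299-fold) and Mir541 (1.297-fold). Just outside the p threshold were Gm5065, Myot and Tchh, with differences of 0.43, 0.52 and -0.40. In all, 106 genes exceeded 1.3-fold without being called. One of them, the immunoglobulin gene Igkv6-20, had the lowest difference of all genes (-1.20) and is named after its values were seen. It was 8.61, 7.82, 7.78 and 8.18 in mice on short-chain β2→1-fructan, against 9.25, 10.13, 9.75 and 8.02 in mice on water.

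Marker lists of immune cells had no called member, although P2ry10, named above and on none of these lists, was called. No gene was called among 9 of B cells, 10 of plasma cells, 11 of T cells and innate lymphoid cells, 12 of macrophages and dendritic cells and 8 of mast cells, with medians from -0.15 (plasma cells) to 0.03. Of 18 genes of helper and regulatory T cells and dendritic cell subsets none was called. The same held for 14 genes of the IL-22 and IL-17 axis, 14 interferon-stimulated genes, 16 genes of antigen presentation and 17 pattern recognition receptors. Il22 itself is not among the 14 genes of its axis. Its sets shared with Iltifb, given below, differed by -1.04 and -0.997. They passed the thresholds in a fit of all sets with a symbol, but not in a fit of all probe sets. Tlr2 differed by 0.29, and Stat3, which carries the IL-22 signal, by 0.12 without overlap.

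Germ-free mice received the same daily amount of short-chain β2→1-fructan, but sterilised by filtration, and came from another breeding colony than the purchased conventional mice. Colonisation, colony and filtration cannot be told apart in this comparison. In germ-free mice 109 genes were called between short-chain β2→1-fructan and water (0.579%), and AB124611 was the one gene also among the 77 (0.68 in germ-free and 0.55 in conventional mice). Fut2 differed by 0.14 in germ-free mice, where its means were 5.01 on short-chain β2→1-fructan and 4.87 on water, and the germ-free minus conventional difference of -0.88 ± 0.30 (SE) was past the interaction threshold. For Duox2 the germ-free difference was -0.47, with means of 6.97 and 7.44 on short-chain β2→1-fructan and water, and the interaction was -1.04 ± 0.28 (SE). Retnlb differed by 0.17 in germ-free mice (interaction -0.96 ± 0.42, SE, not past the threshold). Hp was 5.86 on short-chain β2→1-fructan and 5.24 on water in germ-free mice, opposite to conventional mice, with an interaction of 1.50 ± 0.34 (SE). Cndp1 (interaction 0.60), Defb37 (0.83), Serpina1b (0.53) and Scd1 (0.95) also passed the interaction threshold. Slc2a2, Mme, Reg4 and Tac1 did not. The adipocyte list had a median difference of 0.71 in germ-free mice, the sign opposite to that in conventional mice.

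Over all genes 133 passed the interaction threshold (0.707%), none at an adjusted p of 0.05, and 23 of them were among the 77. Because the 77 were chosen on the conventional mice that also enter the interaction, this overlap is not independent evidence. In germ-free mice, whose arrays the choice did not use, 15 of the 27 genes called higher had a positive difference, as did 53.9% of all genes, and 26 of the 50 called lower had a negative one, as did 46.1% of all genes. The medians were 0.03 and -0.02.

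**Figure D5:**
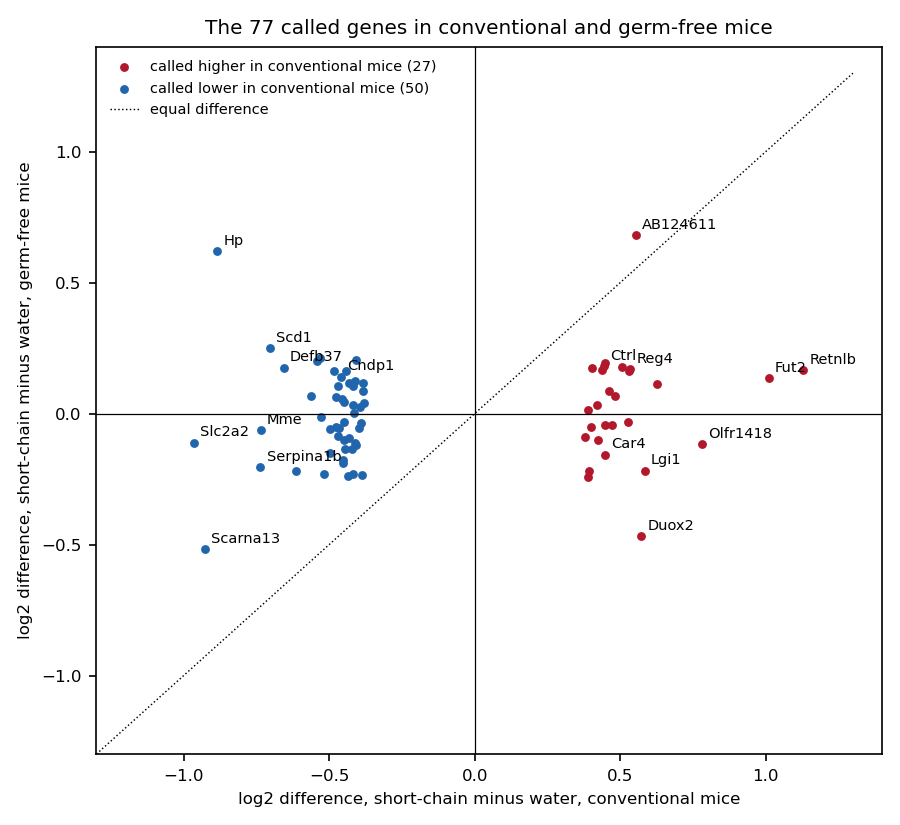
Each point is 1 of the 77 called genes, with the log2 difference between short-chain β2→1-fructan and water in conventional mice on the x axis, which chose the genes, and in germ-free mice on the y axis. Most points lie near 0 in germ-free mice, AB124611 and Scarna13 lie nearer to the line of equal differences and Hp and Duox2 have opposite signs.

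Chain length was compared within conventional mice. Between short-chain and long-chain β2→1-fructan 40 genes were called (0.213%), none at an adjusted p of 0.05, and 6 of these were among the 77. The 77 were chosen on the same short-chain mice that enter this comparison. Neither this overlap nor the size of the differences of called genes is therefore independent evidence. Retnlb was higher on short-chain than on long-chain β2→1-fructan by 1.27 ± 0.30 (SE), with means of 5.75 and 4.48, and Marcksl1 by 0.43. Serpina1b differed by -0.41 between short-chain and long-chain β2→1-fructan, Scd1 by -0.64, Bend6 by -0.43 and Mir152 by -0.43. For Fut2 the difference between the chain lengths was 0.43 ± 0.21 (SE) and for Duox2 0.41 ± 0.20 (SE), neither called. Both fructans were compared with the same mice on water, and beside that group the differences on short-chain and on long-chain β2→1-fructan were 1.01 and 0.58 for Fut2, 1.13 and -0.15 for Retnlb, -0.97 and -1.43 for Slc2a2, 0.45 and 0.44 for Tac1, 0.47 and 0.48 for B3gnt7 and -0.46 and -0.43 for Cndp1.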

How the data were processed

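The deposited values are log2 expression values per probe set of Affymetrix Mouse Gene 1.1 ST arrays, which the authors made by robust multiarray average (RMA: background correction, quantile normalisation between arrays and a summary over the probes of a set) with the Bioconductor library affyPLM. The methods name a remapped probe set definition, while the rows carry the manufacturer's probe set numbers, which were paired with gene symbols through the platform's annotation. Of 35556 probe sets, 21218 had 1 symbol, 1881 several and 12457 none listed. The set with the highest mean was taken for the 1386 genes with several sets. RMA compresses small differences of dim probe sets, and the number of arrays limits the precision.

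A model of the 6 group means over all 24 arrays was fitted with limma 3.58.1 (R 4.3.3; eBayes with an intensity trend), with Benjamini-Hochberg adjustment over 18820 genes. The script was tested on simulated data. Single genes were also given an exact two-sided permutation test. Members and gene lists were chosen with earlier results of these data known. Every called gene could be named, the 12 highest and 12 lowest were given by mouse, and of each list called members and a few others with the smallest p were named, with genes the study turns on. Alternatives were another prior, the study's intensity-based test, fewer arrays, cyclic loess, array weights, a filter on dim genes, averaged probe sets, a replicate block and leaving out each mouse. Probe sets with several symbols were fitted separately.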

Additional observations from a re-analysis of the deposited data

Results flagged for a closer look

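In 16 of 250 groups of 4 mice, over 125 named genes, 1 mouse stood far from the other 3, by Dixon's ratio at the 95% level, where chance flags about 1 in 20 groups. Among mice on short-chain β2→1-fructan, mouse 3 was low for Fut2 (6.42, the others 7.31 to 7.49) and Duoxa2 (8.06) and high for Nat8 (5.84) and P2ry10 (3.22), and mouse 1 was high for Reg4 (11.37) and Sele (3.27) and low for Hoga1 (3.92). Among mice on water, mouse 1 was high for Slc2a2 (6.59), Sis (11.84) and Slc5a1 (10.98) and low for Scarna13 (6.16), Reg4 (10.05) and Retnlg (2.91). Mouse 3 on water was high for Zfy1 (3.49) and low for Lgi1 (1.93), and mouse 2 was low for Fam107a (3.92).

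Probe sets shared by several genes lie outside the 18820 genes, and 9 of 1881 passed the thresholds (0.478%) in a fit of all sets with a symbol. The set of Saa2 and Saa1, acute-phase proteins of the mucosa, was 8.23, 8.41, 7.32 and 9.16 in mice on short-chain β2→1-fructan, against 6.39, 7.35, 7.29 and 6.09 in mice on water, a difference of 1.50 (limma, adjusted p = 0.129). Treated mouse 3, again the lowest of its group, overlapped with mouse 2 on water. A set of Saa2 alone differed by 0.085 and was dim, with means of 2.997 on short-chain β2→1-fructan and 2.91 on water. That set cannot show whether Saa2 changed, and the shared set cannot tell Saa2 from Saa1. A set of Serpina1e, Serpina1c, Serpina1b and Serpina1a differed by -0.68 without overlap (limma, adjusted p = 0.0379), and a set that adds Serpina1d by -0.51. The 2 sets of Iltifb and Il22, which encode the cytokine IL-22 and its near-identical copy, differed by -1.04 and -0.997. The first was 3.28, 3.62, 2.85 and 3.14 in mice on short-chain β2→1-fructan, against 2.98, 5.22, 5.33 and 3.501 in mice on water, so that mice 2 and 3 on water carried the difference, and neither set passed in a fit of all probe sets. The sets of Pced1b and Amigo2 (0.58), 1700086O06Rik and Dele1 (0.39), Nat8f3 and Nat8f5 (-0.49) and Olfr473 and Olfr472 (-0.40) were the other 4.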

How the results depend on the processing

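Of the 77 calls, 13 held in every alternative that tested the gene. Of these 13, the filter on dim genes left out Gm6588, Hp, Olfr1324, Retnlb, Rnu7, Slc35f3 and Zcchc12, which it therefore did not test. Of the 77, 64 were lost in at least 1 fit without 1 mouse and 35 in at least 1 other alternative. With cyclic loess between arrays 41 genes were higher and 39 lower (51.2% higher, against 35.1%). Without dim genes 29 were called, 10 higher and 19 lower, as were 51 for the interaction and 14 between the chain lengths, since fewer genes were tested. Leaving out 1 mouse gave 65 to 123 calls, 21 to 47 higher and 35 to 85 lower, with 123 without treated mouse 3 and 118 without water mouse 4. It gave 107 to 215 for the interaction, with 215 without germ-free water mouse 3, and 50 to 92 between the chain lengths. Among the 125 named genes, the only ones checked for this, differences near 0 changed sign for 3 genes. These were Muc2 (-0.0011 with array weights, -0.016 to 0.026 without 1 mouse), Slc2a5 (0.021 with array weights, -0.17 to 0.076 without 1 mouse) and Slc5a1 (-0.077 to 0.041 without 1 mouse). The replicate block gave 79 calls, 23 higher and 56 lower, of which 70 were shared. Mice of the same number deviated with correlations from -0.011 to 0.043 over genes, so the number pairs nothing. An adjusted p under 0.05 was reached by Defb37 and Serpina1b in the 8 arrays alone, by Cndp1, Serpina1b and Snord104 with array weights, and by Car4, Duox2, Fut2, Mme and Serpina1b without treated mouse 3. Causes were not tested.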

Other observations

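Of 15 measured enteroendocrine genes, 11 were positive, as were 43.5% of all genes, with a median of 0.08. Tac1 was the one call, where 0.143% of all genes were called higher. Ghrl (-0.24), Cck (-0.21), Insl5 (-0.21) and Nts (-0.086) were the 4 negative members. Tph1, which makes serotonin in enterochromaffin cells, was 6.10, 6.13, 6.16 and 5.93 in mice on short-chain β2→1-fructan, against 5.32, 5.68, 5.78 and 6.04 in mice on water (0.37). Gcg, the precursor of GLP-1, was 8.83, 8.87, 8.96 and 8.87 in mice on short-chain β2→1-fructan, against 8.20, 8.64, 8.72 and 8.94 in mice on water (0.26). Of 10 genes linked to short-chain fatty acids, among them receptors, transporters and the hormone genes Gcg and Pyy, none was called and the median was -0.04. The monocarboxylate transporter Slc5a12 was 5.28, 4.902, 5.61 and 6.04 in mice on short-chain β2→1-fructan, against 6.84, 6.13, 6.25 and 5.58 in mice on water (-0.74). All 7 measured genes of pancreatic acinar cells had positive differences, as did 43.5% of all genes, with a median of 0.11. Among them were Cela1 (0.34) and Cpb1 (0.39), and none was called.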
